A study of Mus musculus with 4 samples.

Results

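The BCL2 family sets whether a mitochondrion releases the proteins that start apoptosis. The 10 members described here were all rows of the deposited table with the gene name *Bcl2*, *Bcl2l1*, *Mcl1*, *Bax*, *Bak1*, *Bid*, *Bad*, *Bcl2l11*, *Bbc3* or *Pmaip1*. Each name was found, among 55820 loci in all, and all 10 members passed the filter on low counts, as did 20561 loci of the whole table. RNA sequencing was performed on whole testes of male C57BL/6J mice at postnatal day 10 (P10), with 2 control and 2 *Mps1*sKO libraries. In *Mps1*sKO mice, *Stra8*-Cre deletes floxed *Mps1* (gene symbol *Ttk*), a kinase of the spindle assembly checkpoint, in germ cells from early spermatogonia onwards. The floxed line was made by targeting in embryonic stem cells, and the alleles carried by the control mice are not given in the sources used here. Neither is it stated whether each library came from 1 mouse, so p-values measure only the spread between these libraries, which may be technical. The somatic cells of the testis lie outside the range of the Cre and make up part of every library.

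In healthy cells, the anti-apoptotic proteins BCL2, BCL-XL (encoded by *Bcl2l1*) and MCL1 hold back the effectors BAX and BAK, which otherwise form pores in the outer mitochondrial membrane and let cytochrome c out. The BH3-only proteins sense damage or loss of survival signals and act by placing their BH3 helix into a groove of the other members. In the testis, the first wave of spermatogenesis is accompanied by a wave of germ cell apoptosis, and male mice without *Bax* are sterile.

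A BH3 helix occurs in members of all 3 classes, so its coding sequence shows a stretch that the family shares. It was found as a leucine codon followed by any 3 codons, then a codon for glycine, alanine or serine and one for aspartate, read in frame on the coding strand of the principal GENCODE M21 transcript (GRCm38). All 10 members held the motif, and so did 6897 of 20096 principal coding transcripts (34.3%), so that a match is a description of the sequence. The serine form was allowed after *Bad* was seen to lack the glycine form, and with glycine alone the share was 13.2%. Each line gives the gene and 39 bases, 5′ to 3′, that lie within 1 coding exon, with the leucine codon and the last 2 codons of the motif in capitals.
Bcl2: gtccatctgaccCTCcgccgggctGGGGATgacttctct
Bcl2l1: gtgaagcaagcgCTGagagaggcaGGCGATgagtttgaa
Mcl1: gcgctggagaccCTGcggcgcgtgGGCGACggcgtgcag
Bax: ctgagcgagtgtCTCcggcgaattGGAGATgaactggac
Bak1: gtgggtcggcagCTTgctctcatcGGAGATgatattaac
Bid: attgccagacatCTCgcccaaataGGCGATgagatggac
Bad: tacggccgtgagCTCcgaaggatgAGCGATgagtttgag
Bcl2l11: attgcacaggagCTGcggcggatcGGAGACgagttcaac
Bbc3: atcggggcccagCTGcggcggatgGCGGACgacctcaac
The search fixed the leucine and aspartate codons, and the codon before aspartate was one for glycine in 7 of these 9 genes, for serine in *Bad* and for alanine in *Bbc3*. The 39 bases were read from chr1:106712575-106712613 (minus strand) for *Bcl2*, chr2:152829697-152829735 (minus) for *Bcl2l1* and chr3:95659424-95659462 (plus) for *Mcl1*. Those of the effectors lay at chr7:45465997-45466035 (minus, *Bax*) and chr17:27022531-27022569 (minus, *Bak1*). Those of the BH3-only genes lay at chr6:120897289-120897327 (minus, *Bid*), chr19:6950780-6950818 (plus, *Bad*), chr2:128147138-128147176 (plus, *Bcl2l11*) and chr7:16313761-16313799 (plus, *Bbc3*). *Pmaip1* held 2 matches and its sequence is not shown. Of 5 complete coding transcripts of *Bcl2l11*, 4 held the motif, and counts per gene do not separate such isoforms.

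The libraries held 23311689 to 28607746 counts, of which mitochondrial genes took 2.52% to 3.14%. *Ttk* was checked first and had 27.9 and 32.6 CPM (counts scaled to the same library total) in control testes against 13.0 and 12.2 CPM in *Mps1*sKO testes. It fell by 1.26 on the log2 scale (SE 0.129, adjusted p = 0.0461, edgeR quasi-likelihood test with Benjamini-Hochberg adjustment). Its adjusted p stayed below 0.05 under 8 of 13 alternative settings and reached 0.224 with the replicate number as a block. Over all loci tested, 6 passed an adjusted p below 0.05 (0.0292%) and 1912 an unadjusted p below 0.05 (9.30%), of which 1105 were lower (5.37%) and 807 higher (3.92%) in *Mps1*sKO testes. In 8509 loci (41.4%) both *Mps1*sKO libraries lay on the same side of both control libraries, above them in 4176 (20.3%) and below them in 4333 (21.1%).

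No member of the 3 classes passed the test at P10. By edgeR's quasi-likelihood test, 0 of 10 members passed an adjusted p below 0.05, against 0.0292% of all loci, and 0 of 10 passed an unadjusted p below 0.05, against 9.30%. DESeq2 and limma-voom likewise gave 0 members at an unadjusted p below 0.05. In value, 5 members were higher and 5 lower in *Mps1*sKO testes, with log2 fold changes from -0.16 (*Bbc3*) to 0.25 (*Pmaip1*) and a median of 0.02, beside a median of 0.00027 over all loci. Values did not overlap between the groups for 4 of 10 members (40.0%), a share near the 41.4% of all loci. These were *Mcl1*, *Bcl2l11* and *Pmaip1*, above the controls, and *Bbc3*, below them. The libraries are of whole testes, in which fewer cells of a type and less RNA per cell cannot be told apart.

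**Figure D1:**
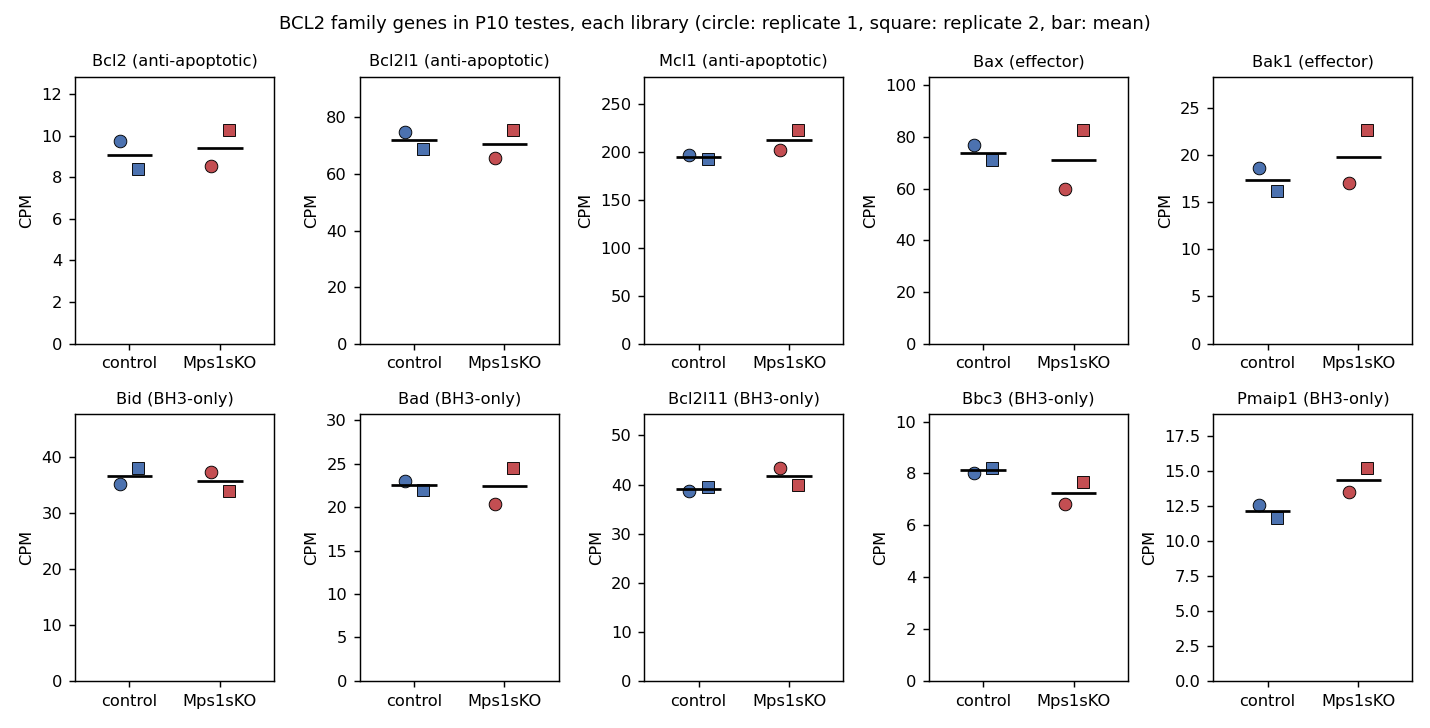
CPM of each of the 10 members (vertical axis, from 0) in the control (blue) and *Mps1*sKO (red) libraries; circles are replicate 1, squares replicate 2 and bars the mean of each group. The groups do not overlap for *Mcl1*, *Bcl2l11*, *Pmaip1* and *Bbc3*, and relative to their level the *Mps1*sKO libraries stand farthest apart for *Bax* (59.9 and 82.6 CPM, 0.463 on the log2 scale) and *Bak1* (17.0 and 22.6 CPM, 0.411).

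Of the anti-apoptotic genes, *Mcl1* encodes a short-lived survival protein that binds BAK and several BH3-only proteins (ENSMUSG00000038612, GRCm38 chromosome 3, 95658788 to 95663176, plus strand). It had 197 and 192 CPM in control testes and 202 and 223 CPM in *Mps1*sKO testes, so that both *Mps1*sKO libraries were above both controls. This difference was 0.13 on the log2 scale (SE 0.0907, 95% interval -0.09 to 0.34, unadjusted p = 0.205 and adjusted p = 0.681 by edgeR), and it was 0.05 without *Mps1*sKO replicate 2 and 0.19 without replicate 1. *Bcl2l1*, whose main product BCL-XL guards mitochondria in many cell types, lies on chromosome 2 from 152780668 to 152831728 on the minus strand (ENSMUSG00000007659). Its values were 74.8 and 69.0 CPM in control and 65.7 and 75.4 CPM in *Mps1*sKO testes, and the *Mps1*sKO libraries fell on both sides of the controls. The log2 fold change was -0.03 (SE 0.104, 95% interval -0.27 to 0.22, adjusted p = 0.959 by edgeR), and it turned to 0.07 without *Mps1*sKO replicate 1 and to 0.03 without control replicate 1. *Bcl2*, the founding member, lies on chromosome 1 from 106538178 to 106714274 on the minus strand (ENSMUSG00000057329). It had 9.77 and 8.43 CPM in control and 8.55 and 10.3 CPM in *Mps1*sKO testes, again with overlap. Its log2 fold change of 0.05 (SE 0.165, 95% interval -0.33 to 0.44, adjusted p = 0.946 by edgeR) turned to -0.09 without *Mps1*sKO replicate 2 and to -0.05 without control replicate 2. The median log2 fold change of the 3 anti-apoptotic genes was 0.05, with 2 higher and 1 lower in value.

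The effectors carry out the permeabilization of the outer membrane. *Bax*, which moves from the cytosol to mitochondria on activation, lies on chromosome 7 from 45461697 to 45466898 on the minus strand (ENSMUSG00000003873). It had 76.8 and 71.2 CPM in control and 59.9 and 82.6 CPM in *Mps1*sKO testes. One *Mps1*sKO library was thus below both controls and the other above both. Its log2 fold change was -0.05 (SE 0.149, 95% interval -0.40 to 0.29, adjusted p = 0.934 by edgeR). Its sign hung on single libraries: the value was -0.30 without *Mps1*sKO replicate 2, 0.16 without *Mps1*sKO replicate 1 and 0.0003 without control replicate 1. *Bak1* encodes BAK, which is anchored in the mitochondrial membrane (ENSMUSG00000057789, chromosome 17, 27019810 to 27029009, minus strand). It had 18.6 and 16.2 CPM in control and 17.0 and 22.6 CPM in *Mps1*sKO testes, where replicate 2 was above both controls and replicate 1 between them. The log2 fold change of 0.19 (SE 0.163, 95% interval -0.19 to 0.57, adjusted p = 0.739 by edgeR) became 0.38 without *Mps1*sKO replicate 1 (unadjusted p = 0.0324, adjusted p = 0.377 by edgeR) and -0.03 without *Mps1*sKO replicate 2. Over all alternatives the adjusted p of any member was at least 0.317.

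Among the BH3-only genes, *Pmaip1* (NOXA) and *Bbc3* (PUMA) are classic targets of p53, and their values went opposite ways. *Pmaip1*, whose product chiefly neutralizes MCL1, lies on chromosome 18 from 66458533 to 66465565 on the plus strand (ENSMUSG00000024521). It had 12.6 and 11.7 CPM in control and 13.5 and 15.3 CPM in *Mps1*sKO testes, without overlap. On the log2 scale the difference was 0.25 (SE 0.137, 95% interval -0.07 to 0.56, unadjusted p = 0.111 and adjusted p = 0.606 by edgeR), the highest of the 10 members, and it was 0.15 without *Mps1*sKO replicate 2. *Bbc3*, whose product binds all anti-apoptotic members, lies on chromosome 7 from 16308393 to 16318205 on the plus strand (ENSMUSG00000002083). It had 8.02 and 8.22 CPM in control and 6.82 and 7.69 CPM in *Mps1*sKO testes, so that both *Mps1*sKO libraries were below both controls. The log2 fold change was -0.16 (SE 0.156, 95% interval -0.52 to 0.20, unadjusted p = 0.333 and adjusted p = 0.771 by edgeR), the lowest of the 10, and became -0.08 without *Mps1*sKO replicate 1 and -0.25 without replicate 2. Both intervals include 0. *Trp53*, the gene of p53 itself, had a log2 fold change of 0.13 (SE 0.112, adjusted p = 0.747 by edgeR), and its groups overlapped.

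The other 3 BH3-only genes respond to different signals. *Bcl2l11* encodes BIM, which is induced when survival factors are withdrawn (ENSMUSG00000027381, chromosome 2, 128126038 to 128162547, plus strand). It had 38.7 and 39.5 CPM in control and 43.4 and 39.9 CPM in *Mps1*sKO testes. The groups did not overlap, although *Mps1*sKO replicate 2 was close to control replicate 2, and the log2 fold change was 0.09 (SE 0.0970, 95% interval -0.13 to 0.32, adjusted p = 0.790 by edgeR). Without *Mps1*sKO replicate 1 it was 0.03, and without replicate 2 it was 0.15. *Bid*, whose product is cleaved by caspase-8 and links death receptors to mitochondria, lies on chromosome 6 from 120891930 to 120916853 on the minus strand (ENSMUSG00000004446). It had 35.2 and 38.0 CPM in control and 37.2 and 33.9 CPM in *Mps1*sKO testes, with overlap. The log2 fold change was -0.04 (SE 0.104, 95% interval -0.28 to 0.20, adjusted p = 0.927 by edgeR) and turned to 0.02 without *Mps1*sKO replicate 2 and to 0.01 without control replicate 2. *Bad*, whose product is kept inactive by phosphorylation downstream of growth factors, lies on chromosome 19 from 6941861 to 6951899 on the plus strand (ENSMUSG00000024959). It had 23.02 and 21.98 CPM in control and 20.3 and 24.5 CPM in *Mps1*sKO testes, on both sides of the controls. With these values the log2 fold change was -0.0036 (SE 0.128, 95% interval -0.30 to 0.29, adjusted p = 0.997 by edgeR), and its sign turned with DESeq2 size factors (0.0025), in DESeq2 (0.0023), without *Mps1*sKO replicate 1 (0.12) and without control replicate 1 (0.03). The median of the 5 BH3-only genes was -0.0036, with 2 higher and 3 lower in value.

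**Figure D2:**
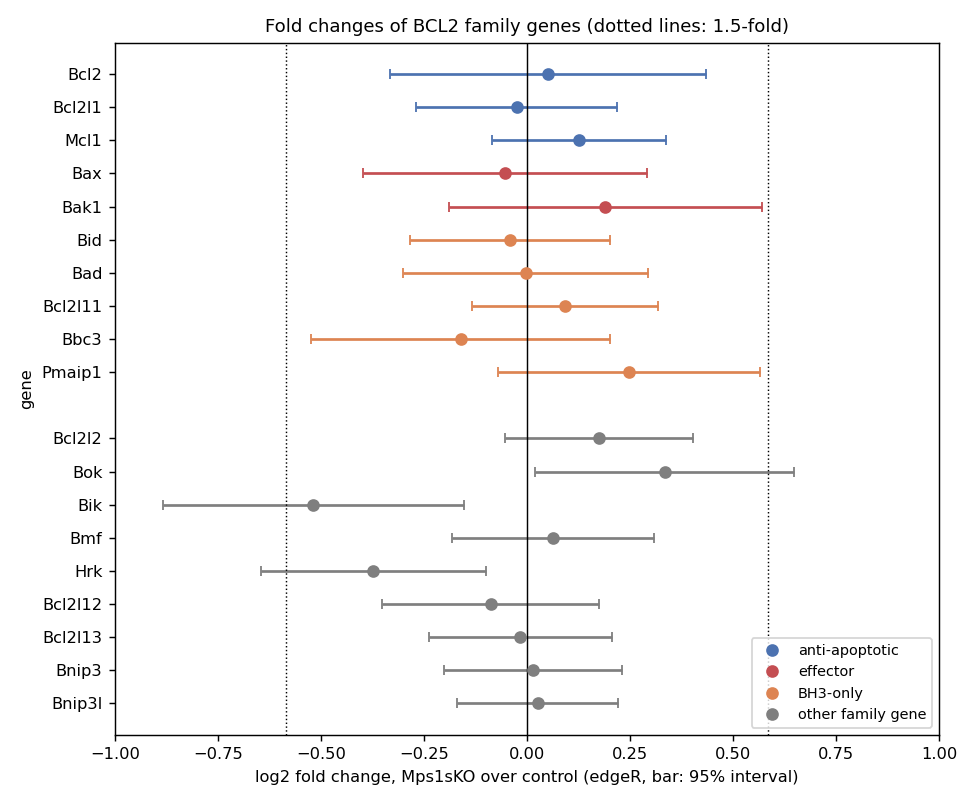
Log2 fold change of *Mps1*sKO over control testes (horizontal axis) with its 95% interval for the 10 members, coloured by class, and for the 9 other family genes that passed the filter (grey); dotted lines mark 1.5-fold. All 10 member intervals include 0 and lie inside the dotted lines, whereas those of *Bok*, *Bik* and *Hrk* do not include 0.

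The counts behind the members ran from 158 (*Bbc3*, *Mps1*sKO replicate 1) to 5963 (*Mcl1*, *Mps1*sKO replicate 2). The width of each interval also reflects the spread between libraries. The 95% intervals of all 10 members lay inside a 1.5-fold change in either direction, with bounds reaching from -0.52 to 0.57 on the log2 scale. Intervals of 7 members lay inside 1.4-fold, those of 5 inside 1.3-fold and those of 0 inside 1.2-fold. The tested loci of the whole table were not matched to the members for counts, on which the width also depends. Over all these loci the shares were 54.0% for 1.5-fold, 44.2% for 1.4-fold, 28.7% for 1.3-fold and 7.38% for 1.2-fold. A change of 1.2-fold in at least 1 direction was therefore within the interval of every member, and each interval is for 1 gene at a time. Where a gene of the other strand overlaps a member, reads cannot be told apart unless strand was used in counting, which is not stated. *Bak1* lies within *Ggnbp1*, whose larger row had 200 to 227 counts. *Bid* shares 913 bases with *Bcl2l13* (1723 to 2119 counts), and *Bad* shares 620 bases with *Gpr137* (627 to 808 counts). Strand cannot separate reads of overlapping genes on the same strand. There, *Bid* shares 2094 bases with *Gm44260* (57 to 69 counts), and *Bax* shares 915 bases with *Gm45808* (0 to 2 counts).

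Levels of different genes were compared per gene length, as the authors' FPKM values. In control testes *Mcl1* was highest at 56.5 ± 0.918 FPKM (SD, n = 2), followed by *Bax* at 46.6 ± 2.41, *Bcl2l1* at 15.6 ± 0.866 and *Bid* at 10.2 ± 0.577. The middle of the order held *Bad* at 8.73 ± 0.271 FPKM, *Bak1* at 7.17 ± 0.713 and *Bcl2l11* at 4.83 ± 0.0713. *Pmaip1* at 4.41 ± 0.243 FPKM, *Bbc3* at 3.79 ± 0.0711 and *Bcl2* at 0.986 ± 0.101 were lowest. The founding member of the family was thus the least abundant mRNA of the 10, and *Mcl1* the most abundant of the anti-apoptotic genes. No neighbours in this order overlapped between the 2 control libraries. In *Mps1*sKO testes the order began with *Mcl1* at 61.9 ± 4.33 FPKM and *Bax* at 45.1 ± 10.2 and ended with *Bbc3* at 3.40 ± 0.295 and *Bcl2* at 1.02 ± 0.134. There, *Bid* overlapped *Bad*, *Bad* overlapped *Bak1*, and *Pmaip1* at 5.25 ± 0.463 overlapped *Bcl2l11* at 5.17 ± 0.296.

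**Figure D3:**
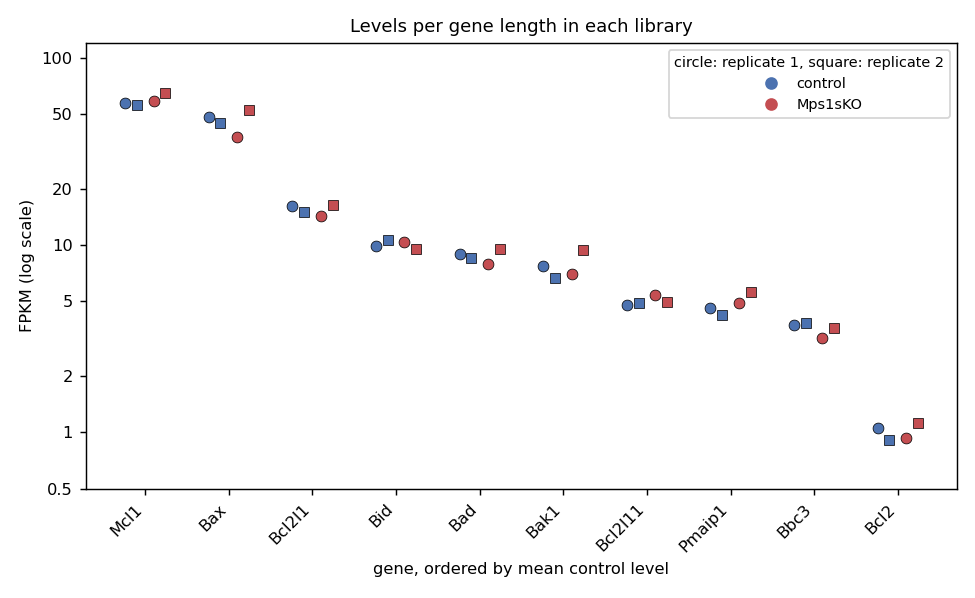
FPKM (vertical axis, log scale) of the 10 members in each library, ordered by the mean control level, with control libraries in blue and *Mps1*sKO libraries in red (circles replicate 1, squares replicate 2). *Mcl1* and *Bax* lie highest and *Bcl2* lowest in both groups.

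The balance of death-promoting and death-opposing members is often given as a ratio. Summed over the 3 anti-apoptotic genes, the level was 74.4 and 71.7 FPKM in control and 74.0 and 82.5 FPKM in *Mps1*sKO testes. The effectors summed to 56.0 and 51.6 FPKM in control and 44.9 and 61.7 FPKM in *Mps1*sKO testes, and the 5 BH3-only genes to 31.9 and 32.1 against 31.8 and 33.3 FPKM. All 3 sums overlapped between the groups. In control replicate 1, *Mcl1* held 57.2 of the 74.4 anti-apoptotic FPKM and *Bax* 48.3 of the 56.0 effector FPKM. The anti-apoptotic and effector sums, and ratios made from them, therefore weigh these genes most. The log2 ratio of effector and BH3-only to anti-apoptotic FPKM was 0.239 and 0.223 in control and 0.051 and 0.202 in *Mps1*sKO testes. Both *Mps1*sKO libraries were below both controls, with a difference of -0.105 (exact two-sided permutation test, p = 0.333, the smallest that 2 against 2 libraries can give). The ratio was lowest in *Mps1*sKO replicate 1, and the difference was -0.03 without this library, -0.18 without *Mps1*sKO replicate 2 and -0.02 when the mean of log2 FPKM was used in place of the sum. The linear ratio of *Bax* to *Bcl2* was 45.7 and 49.1 in control and 40.7 and 46.7 in *Mps1*sKO testes (exact permutation p = 0.667). That of *Pmaip1* to *Mcl1*, an inhibitor and its target, was 0.0802 and 0.0759 in control and 0.0836 and 0.0858 in *Mps1*sKO testes (exact permutation p = 0.333). Of 7 such ratios, these 3 and those of effectors to anti-apoptotic genes, BH3-only to anti-apoptotic genes, *Bax* to *Bcl2l1* and *Bcl2l11* to *Mcl1*, none can pass a threshold of 0.05 in this design, before or after adjustment.

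Over the members, the median absolute log2 fold change between genotypes was 0.0725, beside 0.148 over all loci. The loci were not matched to the members for level, and the median SE was 0.132 over the members and 0.155 over all loci. Of the 10 members, 8 were higher in *Mps1*sKO replicate 2 than in replicate 1 (80%), where 49.8% of all loci were. In the controls, 3 of 10 were higher in replicate 2 (30%, all loci 49.5%). The median absolute log2 difference between the *Mps1*sKO libraries was 0.187 over the members and 0.188 over all loci, and between the controls 0.110 and 0.152. *Bax* and *Bak1* had the largest differences between the *Mps1*sKO libraries of the 10 members and are ranked here for that reason. For *Bax* the *Mps1*sKO libraries differed by 0.463 on the log2 scale, and 4.36% of the 11753 loci at or above the level of the lowest member differed by more. For *Bak1* the difference was 0.411, which 6.58% of these loci exceeded. Both effectors were thus lower in *Mps1*sKO replicate 1, which also had the fewest counts (23311689). Summed markers of germ cells (985.8 and 740.5 CPM) and of Sertoli cells (6656 and 5836 CPM) also differed between *Mps1*sKO replicates 1 and 2. The Sertoli marker *Clu* took 4399 and 3319 CPM of the Sertoli sums, which fell through this gene. *Clu* and *Cldn11* (505.5 and 488.6 CPM) were lower in replicate 2, and the other Sertoli markers were higher there. The parts of depth and of cell composition were not tested.

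A wider list held 15 other BCL2 family genes, of which 9 passed the filter, with 5 higher and 4 lower in value and a median log2 fold change of 0.01. None passed an adjusted p below 0.05, and 3 passed an unadjusted p below 0.05, 1 of them higher and 2 lower, where 9.30% of all loci did (3.92% higher and 5.37% lower). *Bik*, a BH3-only gene of the endoplasmic reticulum that acts together with *Bcl2l11* in the death of germ cells, had 9.25 and 9.92 CPM in control and 7.12 and 6.27 CPM in *Mps1*sKO testes. Its log2 fold change was -0.52 (SE 0.157, 95% interval -0.88 to -0.15, unadjusted p = 0.0116 and adjusted p = 0.494 by edgeR), and the groups did not overlap. *Hrk*, a BH3-only gene best known from neurons, had 26.0 and 28.4 CPM against 22.2 and 19.9 CPM, a log2 fold change of -0.37 (SE 0.117, unadjusted p = 0.0137 and adjusted p = 0.497 by edgeR). *Bok*, a relative of *Bax* and *Bak1*, had 97.6 and 78.6 CPM against 101 and 121 CPM, a log2 fold change of 0.33 (SE 0.135, unadjusted p = 0.0403 and adjusted p = 0.527 by edgeR). Unadjusted p was below 0.05 for *Bik* and *Hrk* under 11 and for *Bok* under 10 of the 13 alternatives. Without control replicate 2 the unadjusted p by edgeR was 0.0619 for *Bik* and 0.107 for *Hrk*, and without *Mps1*sKO replicate 2 it was 0.0536 and 0.0635. Leaving out control replicate 2 gave *Bok* a log2 fold change of 0.18, and leaving out *Mps1*sKO replicate 2 one of 0.19 (unadjusted p = 0.269 and 0.201 by edgeR), and with the replicate block the unadjusted p was 0.0806. Its adjusted p by edgeR ran from 0.025 under a crossed block, chosen after seeing the data, to 1 when control replicate 2 was left out. *Bcl2l2*, the anti-apoptotic gene of BCL-W, without which adult spermatogenesis fails, had 156 ± 9.37 CPM in control and 176 ± 14.3 CPM in *Mps1*sKO testes (SD, n = 2), with a log2 fold change of 0.17 and adjusted p = 0.611 by edgeR. Per length, control levels of *Bnip3l* (53.7 ± 0.529 FPKM), *Bok* (47.5 ± 7.18 FPKM), *Bcl2l2* (34.6 ± 2.03 FPKM) and *Bnip3* (25.6 ± 0.413 FPKM) were between that of *Mcl1* and that of *Bcl2l1*, and these 4 genes were chosen after their levels were seen. Of the 6 that did not pass the filter, *Bcl2l10*, *Bcl2a1a*, *Bcl2a1b*, *Bcl2a1d*, *Bcl2l14* and *Bcl2l15*, none had more than 6 counts in a library. The 3 *Bcl2a1* genes are near-identical copies whose counts are uncertain.

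The genes that act with the family were described in the same way. Of 12 mitochondrial partners, which include cytochrome c (*Cycs*), the channel genes *Vdac1*, *Vdac2* and *Vdac3* and the apoptosome gene *Apaf1*, 8 were higher and 4 lower in value, with a median log2 fold change of 0.06. By edgeR 0 passed an unadjusted p below 0.05, and the groups did not overlap for 7 (58.3%, 5 above and 2 below), beside 41.4% of all loci (20.3% above and 21.1% below). Of 19 regulators of family genes and proteins, 11 were higher and 8 lower, with a median of 0.04, and 7 did not overlap (36.8%, all loci 41.4%). The 1 that passed an unadjusted p below 0.05 was *Mapk9*, a JNK kinase that phosphorylates BIM, with 290 and 295 CPM in control and 349 and 326 CPM in *Mps1*sKO testes. Its log2 fold change was 0.21 (SE 0.0866, unadjusted p = 0.0464 and adjusted p = 0.532 by edgeR), with an unadjusted p below 0.05 under 6 of 13 alternatives. By edgeR the unadjusted p was 0.227 without control replicate 1, 0.182 without control replicate 2, 0.154 without *Mps1*sKO replicate 1 and 0.147 with the replicate block.

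Markers of several testis cell types had larger differences between the groups than the family classes. Over all loci, 5.37% were lower and 3.92% higher at an unadjusted p below 0.05, and 21.1% were below both controls in both *Mps1*sKO libraries. All 6 markers of germ cells were below the controls in both *Mps1*sKO libraries, with a median log2 fold change of -0.45 and 5 at an unadjusted p below 0.05 by edgeR, and their summed level was 1059 and 1265 CPM in control and 986 and 741 CPM in *Mps1*sKO testes. Of 5 markers of differentiating spermatogonia 4 were lower at an unadjusted p below 0.05 (median -0.49, 380 and 450 against 327 and 272 CPM), and so were 8 of 9 meiotic prophase genes (median -0.61, 493 and 642 against 418 and 343 CPM). Of 6 markers of undifferentiated spermatogonia 1 was lower at an unadjusted p below 0.05 (median 0.07, 237 and 209 against 210 and 203 CPM). All 9 Sertoli cell markers were higher in value, 3 of them at an unadjusted p below 0.05 (median 0.26, 4950 and 5397 against 6656 and 5836 CPM). Both *Mps1*sKO libraries were above both controls for 4 of these markers (all loci 20.3%), and the groups overlapped for 5. Among these 5 was *Clu*, a large part of the sum, with 2900 and 3586 CPM in control and 4399 and 3319 CPM in *Mps1*sKO testes. Markers of Leydig cells (median 0.18, 6 genes), peritubular myoid cells (-0.12, 5 genes), macrophages (-0.13, 5 genes) and endothelial cells (0.10, 5 genes) had 0 at an unadjusted p below 0.05. No marker of any list passed an adjusted p below 0.05 by edgeR, and none was at 0 in all libraries. At this depth such a check could hardly fail, so it does not show which cell types were present. The part of cell composition in the values of the family was not tested.

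**Figure D4:**
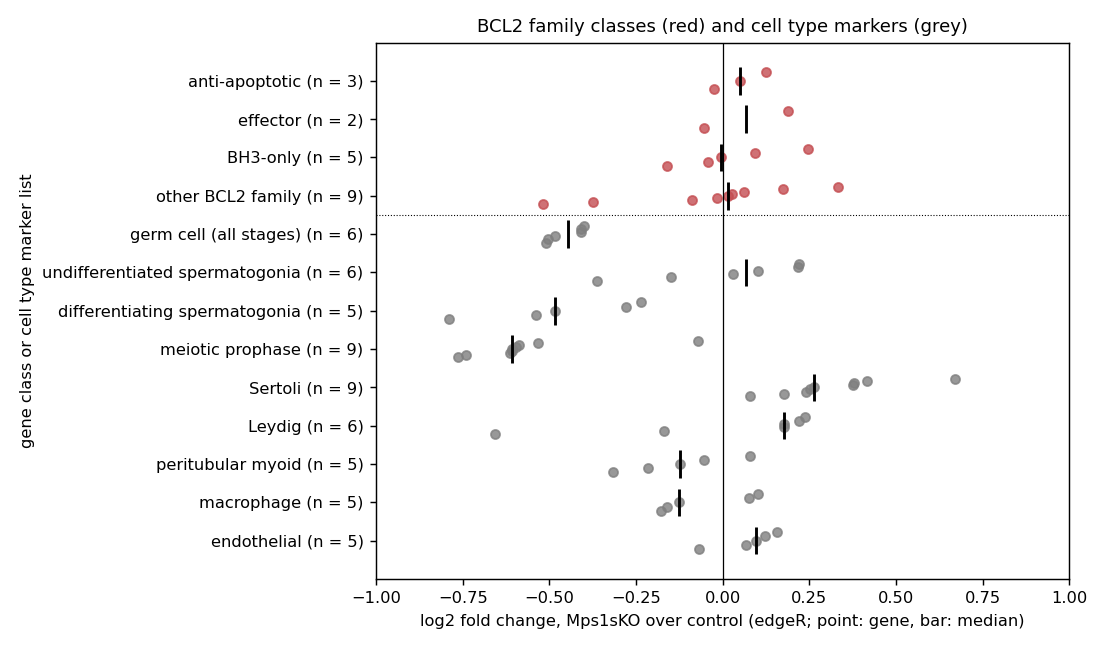
Log2 fold changes of *Mps1*sKO over control testes (horizontal axis) for each tested gene of the BCL2 family classes (red) and of 9 cell type marker lists (grey); bars are medians. The class medians lie between -0.0036 and 0.07, those of the germ cell, differentiating spermatogonia and meiotic prophase lists between -0.61 and -0.45, and that of the Sertoli list at 0.26.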

How the data were processed

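The authors deposited 1 table with raw counts, FPKM values and gene lengths for 4 libraries, made per the labels from total RNA of whole P10 testes with an NEBNext Ultra kit and paired-end NovaSeq reads. The submitters' processing notes name HISAT2 2.0.5, featureCounts, DESeq2 1.16.1 and mm10, and strandedness is not given in the sources used here. The deposited FPKM values equalled count over gene length and over DESeq2 size factor times the geometric mean of the totals (largest relative deviation 2.28e-08). Coordinates of the 10 members were those of GENCODE M21 on GRCm38.

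For the comparison of genotypes, edgeR 4.0.16 was run on the counts under R 4.3.3 (filterByExpr, TMM, quasi-likelihood F test on genotype, common biological coefficient of variation 0.106), with Benjamini-Hochberg adjustment over 20561 loci. DESeq2 1.42.0 and limma 3.58.1 were alternatives. CPM values are counts over TMM-scaled totals, and intervals are 95%. Each SE is the absolute log2 fold change over the square root of the F statistic. The test shares information on spread across loci, so SE, interval and p-value do not rest on the values of 1 gene alone. The members and lists were chosen with earlier results of these data known. Named genes were all members, *Ttk*, and from each gene list at most 4 with an unadjusted p below 0.05 and groups that did not overlap. *Trp53*, *Bcl2l2*, *Bnip3*, *Bnip3l*, *Clu* and *Cldn11* were outside this rule and chosen after their values were seen. Other list genes are named only to say what a list holds or which failed the filter. Motifs were found with Biopython 1.88. A count of 0 allows up to 3 counts, 0.104 to 0.129 CPM, which covers counting error only.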

Additional observations from a re-analysis of the deposited data

How the results depend on the processing

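Of 130 values of a member under an alternative, 117 kept their direction, 13 turned it, and 0 passed an adjusted p below 0.05 (lowest 0.317). *Bad* turned to 0.0025 with DESeq2 size factors and 0.0023 in DESeq2, and every other turn came from leaving out 1 library. The remaining settings refit the same libraries, so a kept direction there says little about how the values would repeat. Leaving out 1 library, which assumes that the lone library of a group varies like the others, gave log2 fold changes from -0.0893 to 0.1748 for *Bcl2*, -0.1288 to 0.0696 for *Bcl2l1*, 0.0545 to 0.1934 for *Mcl1*, -0.3041 to 0.1584 for *Bax*, -0.0325 to 0.3788 for *Bak1*, -0.1092 to 0.024 for *Bid*, -0.1465 to 0.1239 for *Bad*, 0.0305 to 0.1512 for *Bcl2l11*, -0.2517 to -0.0789 for *Bbc3* and 0.1547 to 0.3308 for *Pmaip1*, and 0 to 1 members at an unadjusted p below 0.05. The median of the members ran from -0.06 to 0.14 without 1 library and from 0.002 to 0.03 under the other settings. The log2 ratio of classes was -0.0155 with the mean of log2 FPKM.

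The 6 loci at an adjusted p below 0.05 became 390 with no filter, 37 in DESeq2, 3 in limma-voom, with at least 10 counts in every library, and with annotated genes alone, and 8 to 111 without 1 library. The 1912 loci at an unadjusted p below 0.05 became 3003 with no filter, 1129 in DESeq2 and 726 to 2521 without 1 library. With the replicate block these counts were 2 and 1039, with 0 members and a member median of 0.0193; the labels give a shared number but no pairing, and the deviations of same-numbered libraries correlated at -0.19. A crossed block, chosen after seeing the data, gave 550 and 3793. The causes were not tested.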
